A study of Mus musculus with 5 samples.

Results

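Kinesins are motor proteins that bind microtubules and turn the energy of ATP into movement, and the array measured 38 kinesin genes out of 17325 genes in pro-B cells. Every gene with a symbol that begins with Kif or Kifc and a digit was taken. Each was read from its only probe set among the 23835 available here, a probe set being the group of short probes that reports a transcript. Pro-B cells, the B-lymphoid progenitors that rearrange their immunoglobulin heavy chain genes, were sorted as B220+IgM-CD43+CD24+ bone marrow cells. RNA came from mice 9 months old, 3 control and 2 Vav-Cre Mef2c fl/fl, called Mef2c-deficient here, and was hybridised to 5 Affymetrix Mouse Genome 430 2.0 arrays. Vav-Cre removes the floxed gene in all haematopoietic cells and not only in B cells, and the methods name Mef2c fl/fl, Mef2c fl/+ and Vav-Cre Mef2c fl/+ mice of equal age as controls without saying which of them each control array holds. Mef2c encodes a MADS box transcription factor that is active in B-lymphoid cells. The comparison asks which kinesin transcripts differ in pro-B cells that develop without it.

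Most kinesins walk toward the plus end of a microtubule, the end that faces the cell periphery or the middle of the spindle, while the Kifc genes encode minus-end motors and the Kif2 genes encode motors that take microtubules apart. A first set works in dividing cells, where it builds the bipolar spindle, moves and aligns chromosomes and prepares the midzone for cytokinesis, and its genes are transcribed mostly in G2 and mitosis. A second set carries vesicles, mitochondria and protein complexes in cells at any stage of the cycle, and the remaining kinesins move cargo in cilia or have lost ordinary motor activity. Pro-B cells divide in bursts under interleukin 7, so mitotic motors are in use there. Of the 38 genes, 15 were mitotic, 14 were transport kinesins and 9 were ciliary or atypical. Kif13a and Kif16b were not analysed here, and the probe set of Kif27 also names the gene model Gm26555, so none of these 3 genes is among the 38.

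Promoters of genes that peak in G2 and mitosis often carry a cell-cycle genes homology region (CHR), read by the DREAM and MuvB complexes, and CCAAT boxes upstream of it, read by NF-Y. Of the mitotic windows below, 6 were chosen as examples of promoters that hold a CHR, and Kif18a, which was called lower and, like Kif2a, holds neither motif, stands beside them with Kif24 and Kif3b from the other sets. Each runs from 120 bases before to 30 bases after the RefSeq transcription start on the strand of the gene, in GRCm38.p6, and capitals mark the CHR (TTTGAA or TTCGAA) and the CCAAT box (CCAAT), each on either strand.
Kif4 (chrX:100625945-100626094, plus strand): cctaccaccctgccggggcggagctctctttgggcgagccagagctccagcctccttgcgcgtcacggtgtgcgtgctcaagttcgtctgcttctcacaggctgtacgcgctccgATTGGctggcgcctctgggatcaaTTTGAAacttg
Kif20b (chr19:34922238-34922387, plus strand): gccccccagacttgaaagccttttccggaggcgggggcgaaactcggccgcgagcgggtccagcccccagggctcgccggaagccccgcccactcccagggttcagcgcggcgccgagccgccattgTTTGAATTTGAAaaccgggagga
Kif18b (chr11:102925095-102925244, minus strand): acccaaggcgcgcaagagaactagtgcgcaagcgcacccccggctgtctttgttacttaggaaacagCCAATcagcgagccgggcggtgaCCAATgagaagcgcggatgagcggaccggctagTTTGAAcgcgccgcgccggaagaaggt
Kif23 (chr9:61946770-61946919, minus strand): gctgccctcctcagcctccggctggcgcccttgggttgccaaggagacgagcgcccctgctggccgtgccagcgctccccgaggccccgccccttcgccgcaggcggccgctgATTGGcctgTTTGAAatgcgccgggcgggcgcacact
Kif11 (chr19:37376262-37376411, plus strand): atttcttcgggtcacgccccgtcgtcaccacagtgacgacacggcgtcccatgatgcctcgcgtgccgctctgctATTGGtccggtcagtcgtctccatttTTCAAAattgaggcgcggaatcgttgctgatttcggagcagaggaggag
Kif2c (chr4:117178743-117178892, minus strand): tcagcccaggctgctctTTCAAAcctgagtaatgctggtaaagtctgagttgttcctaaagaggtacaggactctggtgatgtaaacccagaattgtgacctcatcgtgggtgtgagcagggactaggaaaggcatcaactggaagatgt
Kif18a (chr2:109280618-109280767, plus strand): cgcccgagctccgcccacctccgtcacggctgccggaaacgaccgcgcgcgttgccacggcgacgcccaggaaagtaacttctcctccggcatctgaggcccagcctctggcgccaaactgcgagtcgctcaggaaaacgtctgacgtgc
Kif24 (chr4:41464819-41464968, minus strand): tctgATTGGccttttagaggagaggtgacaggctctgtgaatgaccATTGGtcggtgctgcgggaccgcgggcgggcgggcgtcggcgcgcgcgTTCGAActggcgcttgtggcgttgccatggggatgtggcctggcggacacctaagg
Kif3b (chr2:153291296-153291445, plus strand): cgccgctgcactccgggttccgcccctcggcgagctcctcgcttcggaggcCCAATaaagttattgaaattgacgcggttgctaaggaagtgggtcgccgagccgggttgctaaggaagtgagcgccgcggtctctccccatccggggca

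In Kif4, Kif18b and Kif23 a CCAAT box stood just upstream of a CHR that lay at or past the start site, and Kif20b carried 2 adjacent copies of the CHR and no CCAAT box. Kif11 held both motifs on the opposite strand. Kif2c held its CHR further upstream, and Kif3b, which drives transport, held a CCAAT box and no CHR. The RefSeq promoters searched held 34 of 300 bases for 30 of the 38 kinesins. Part of RefSeq was left out of the search, so a kinesin without a promoter here, such as Kif20a or Kif5b, may still have one. A CHR was present in the promoters of 11 of 14 mitotic genes, 1 of 8 transport genes and 2 of 8 ciliary or atypical genes, against 19.2% of 32851 promoters searched. Both motifs together were present in 8 of 14 mitotic genes, 0 of 8 transport genes and 2 of 8 ciliary or atypical genes, against 7.52% of the promoters searched. Within 30 bases of the start site, a CHR was found for Kif11, Kif15, Kif18b, Kif20b, Kif22, Kif23, Kif4, Kifc1 and Kifc5b among mitotic genes, for no transport gene, and for Kif24 and Kif26b, while 3.40% of the promoters searched had one there. A sequence that fits the MEF2 site was present in the promoter of 1 kinesin, Kif2c, at position −233 from the start, and in 3.19% of the promoters searched. These matches describe letters in a window and were not read as bound sites.

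**Figure D1:**
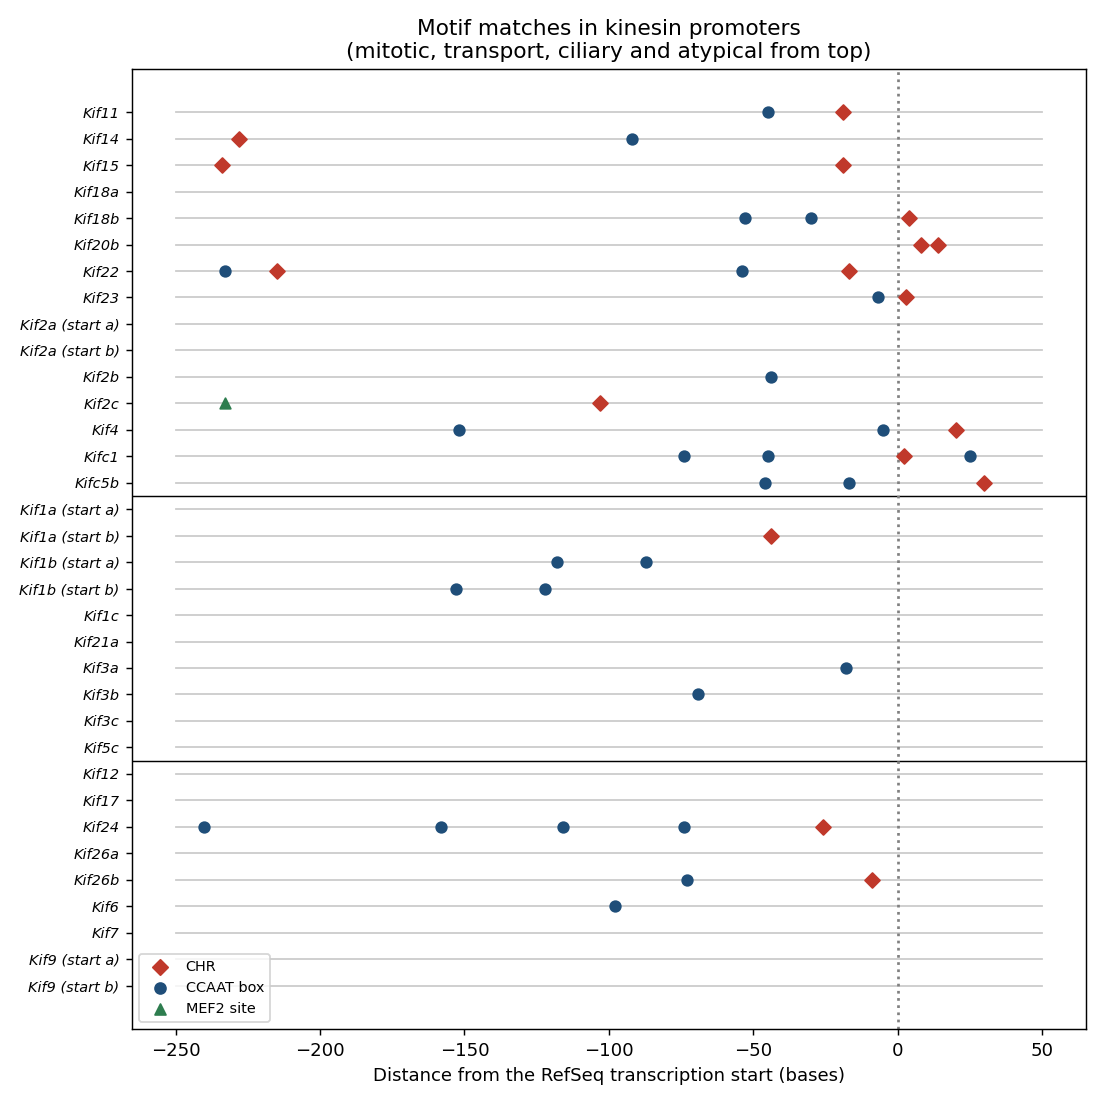
Positions of motif matches in the 34 kinesin promoters, with distance from the RefSeq transcription start in bases on the horizontal axis and a row for each promoter, mitotic genes at the top, transport genes in the middle and ciliary and atypical genes at the bottom. Diamonds mark the CHR, circles the CCAAT box and the triangle a MEF2 site. Of the mitotic genes, 9 had a CHR within 30 bases of the start, and no transport gene did.

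Mef2c itself had deposited values of 14006, 20854 and 17220 on control replicates 1 to 3 and 7379 and 6219 on Mef2c-deficient replicates 1 and 2. Each Mef2c-deficient array was below each control array, with a log2 fold change of −1.34 (standard error 0.29) and a deposited fold of 2.53. The Mef2c probe set stayed at percentile 91.7 or higher on every array, so its signal was reduced and not absent. Its log2 fold change lay −0.43 from the median of −0.91 for genes of like mean value. The sign held under every scaling tried, but the call was lost after quantile normalization, cyclic loess and housekeeping centring, at −0.43, −0.32 and −0.55, and with array weights, at −1.25. The authors' values stand on a linear scale, their natural logarithms run from 1.15 to 14.66, and 314 to 430 values per array exceed 65535, the limit of a 16-bit scanner, so they look like powers of e and not of 2. Read so, a fold of 2 in these values is 1.62-fold in signal, and Mef2c was 1.90-fold lower in signal. Fold changes below are of the deposited values, always Mef2c-deficient against control, unless signal is named. Bright genes were mostly lower and dim genes mostly higher on the Mef2c-deficient arrays, with a median log2 fold change of −0.86 over the brighter 8663 genes and of 0.58 over the other 8662. Mef2c-deficient replicate 2 stood apart: its summed value of 12 markers of T and NK cells was 67855, against 7447 to 23271 on the other 4 arrays, and that of 6 markers of plasmacytoid dendritic cells was 41669, against 5350 to 17094, and all 12 and all 6 of these markers were higher there than on Mef2c-deficient replicate 1. Replicate 1 had the lowest of these sums, and not every T and NK cell marker on replicate 2 exceeded the controls. Cd247 and Gzma, at 6080 and 71.3, were below each control, Klrd1, at 616, lay among them, and Lat, at 2436, equalled control replicates 2 and 3. Summed values there were 5292 for 6 erythroid markers, against 939.4 to 1612 elsewhere, and 5714503 for 10 neutrophil and monocyte markers, against 2323254 to 4837095. The largest erythroid values there were 2200 for Alas2 and 2188 for Slc4a1. Slc4a1 was high on Mef2c-deficient replicate 1 too, at 855 against 188 to 234 in control. Klf1 was 101.8 on both Mef2c-deficient arrays and on control replicate 2, and Epor was lower on Mef2c-deficient replicate 2 than on replicate 1, at 135 against 165. The summed value of 9 pro-B cell markers was 514779, 388765 and 993861 on control replicates 1 to 3 and 546314 and 491117 on the Mef2c-deficient arrays. Control replicate 3 differed from the other controls. Rag1, Rag2 and Dntt were 140899, 22769 and 127098 there, against at most 19797, 2781 and 33157 on control replicates 1 and 2. Elane and Mpo were 917 and 7065 there, against at least 8113 and 53988. Of the 9 pro-B cell markers 7 had log2 fold changes below 0, the median being −0.86, and 0 were called. Igll1 and Il7r were below all controls on both Mef2c-deficient arrays, at −1.25 and −0.86, while Cd79a and Cd79b, which form part of the B cell receptor and make up much of the sum, stood at 0.36 and 0.01. No marker was listed at 0.

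Of the 38 kinesins, 10 were lower and 2 were higher in Mef2c-deficient pro-B cells when a gene was called by the cutoffs of the study, 2-fold or more with limma's p no higher than 0.05 before adjustment. Over all genes tested, 16.7% were called lower and 9.65% higher by the same rule. The study also excluded probes by their detection calls, a filter not applied here. Of the called kinesins, 4 called lower and 2 called higher were among the dimmer 8662 genes. The kinesins called lower were the mitotic Kif18a, Kif20a, Kif20b, Kif2a, Kif2c and Kif4, the transport motors Kif1b, Kif3b and Kif5b, and Kif24, and those called higher were Kif5c and Kif12. Both Mef2c-deficient arrays lay below all control arrays for 16 kinesins and above them for 7, where 28.4% of all genes did the first and 25.9% the second. With the fold threshold set at 2 in signal, 6 kinesins were called lower and 2 higher, beside 10.6% and 4.34% of all genes. After Benjamini-Hochberg adjustment over all genes, 0 kinesins had an adjusted p under 0.05 by limma or by the methods' t-test, while limma gave 14 of them p under 0.05 before adjustment (36.8%, beside 32.3% of all genes) and 6 of them p under 0.10 after it (15.8%, beside 12.0% of all genes), the smallest being 0.0938 for Kif5b. With 1 Mef2c-deficient array left out, the remaining one is assumed to vary like the controls, which alone then give the spread. Without control replicate 2 or Mef2c-deficient replicate 2, 6 kinesins were called lower, and the number called higher was 0 without control replicate 3, 1 without control replicate 1 or 2 and 4 without Mef2c-deficient replicate 2. Centring the arrays on 10 housekeeping genes, which raised the all-gene median from 0.04 to 0.83 on the log2 scale, left 0 kinesins called lower and 17 higher. In RNA of a sorted population, fewer cells in a given stage and less transcript per cell cannot be told apart.

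**Figure D2:**
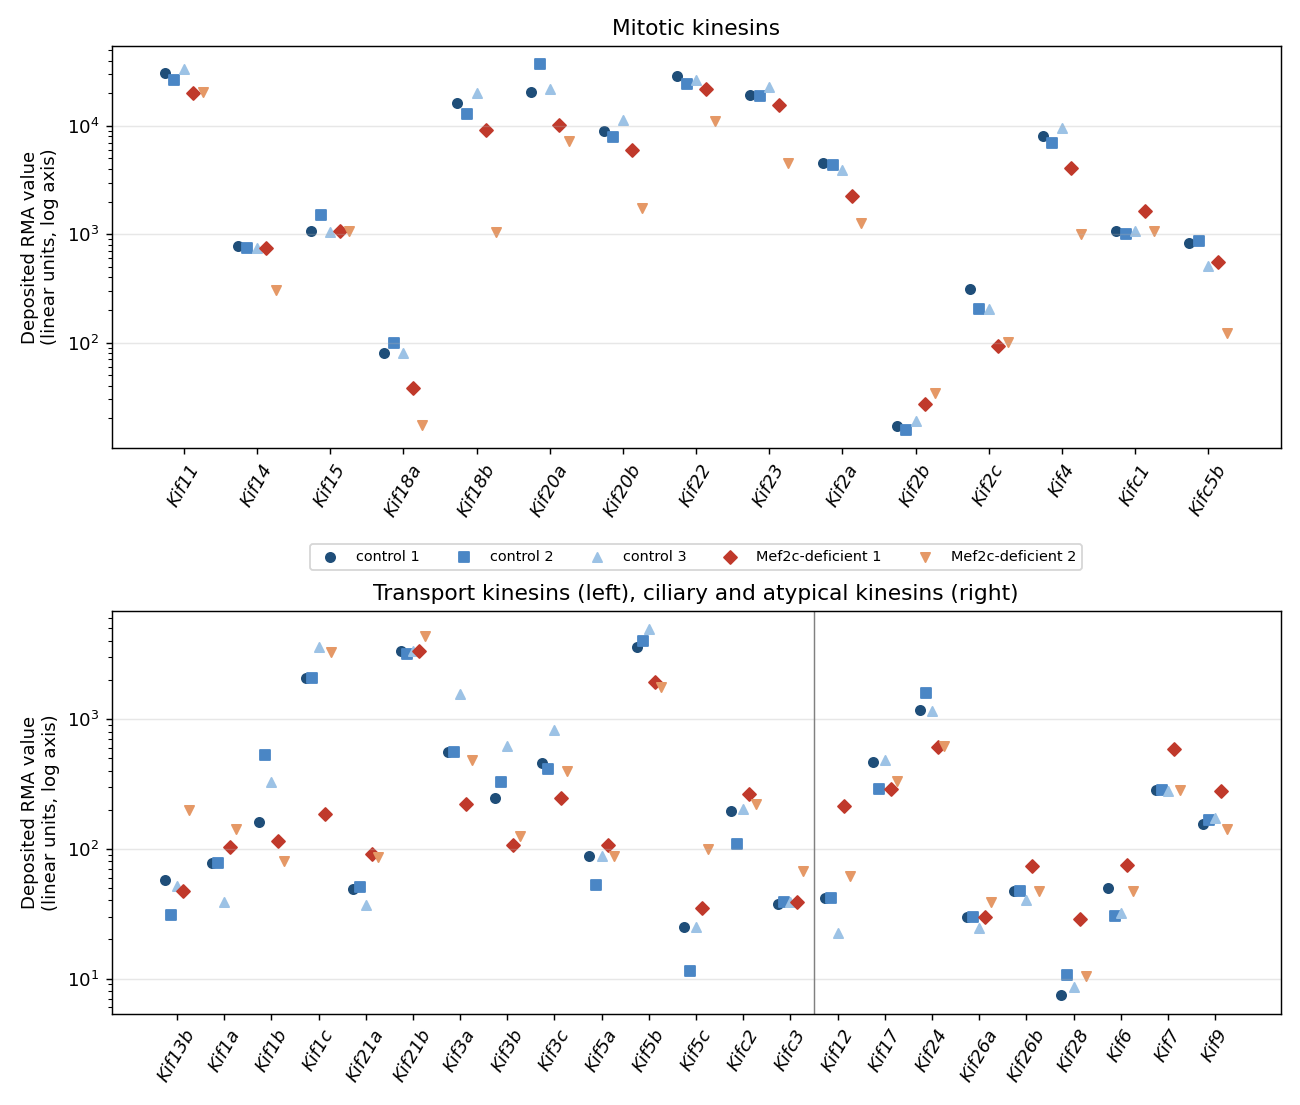
Deposited RMA values of the 38 kinesins on a log axis, 1 point per array, with mitotic kinesins in the upper panel and transport, then ciliary and atypical kinesins in the lower one. Blue symbols are the 3 control arrays and red and orange symbols the 2 Mef2c-deficient arrays. Mef2c-deficient replicate 2 is the lowest array for Kif4, Kif18b, Kif20b and Kif23, and both Mef2c-deficient arrays lie below the controls for Kif5b and Kif24.

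Of 15 mitotic kinesins, 6 were called lower and 0 higher, beside 16.7% and 9.65% of all genes. Of the brighter genes, to which 12 of the 15 belong, 29.8% were called lower. A negative log2 fold change was found for 13 mitotic kinesins, and their median log2 fold change was −1.27, where the median of all genes was 0.04. Their median stayed negative under every scaling tried, at −0.48 after a further quantile normalization, −0.43 after cyclic loess, −1.50 with arrays centred on their medians and −0.49 with arrays centred on 10 housekeeping genes. The number called lower under those 4 scalings, in that order, was 2, 2, 10 and 0, beside 8.57%, 8.35%, 24.1% and 3.73% of all genes. The groups did not overlap for 11 of 15, lower in Mef2c-deficient cells for 10 and higher for Kif2b, beside 28.4% and 25.9% of all genes. Kif2b, a testis-rich depolymerase, had values of 16.9, 15.6 and 18.9 in control and 26.9 and 34.3 in Mef2c-deficient cells (log2 fold change 0.83, standard error 0.26, short of a fold of 2).

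Chromosome movement and the length of spindle microtubules depend on a further set of motors. Kif4, a chromokinesin that compacts chromosome arms and later works with Prc1 at the midzone, had values of 8057, 7011 and 9453 on the control arrays and 4046 and 1004 on the Mef2c-deficient arrays. Both Mef2c-deficient arrays were below every control array and replicate 2 was lowest, with a log2 fold change of −2.01 (standard error 0.63, unadjusted p = 0.0246, adjusted p = 0.12). Kif22, the chromokinesin that pushes chromosome arms toward the spindle equator, had values of 28929, 24417 and 26367 in control against 21921 and 11042 and was not called (log2 fold change −0.77, standard error 0.37). Its values did not overlap between groups, but its sign turned after quantile normalization, cyclic loess and housekeeping centring, and its probe set carries the mark of possible cross-hybridisation. Kif18a, which shortens and steadies kinetochore microtubules, read 80.5, 100.3 and 80.5 in control and 38.5 and 17.6 in Mef2c-deficient cells. The groups did not overlap and differed on the log2 scale by −1.73 (standard error 0.41, unadjusted p = 0.00813, adjusted p = 0.0946), although the probe set was dim, between percentiles 9.05 and 39.0 of its array. Kif18b, which restrains astral microtubules, read 16155, 12744 and 20209 in control and 9179 and 1057 in Mef2c-deficient cells. It had the most negative log2 fold change of the 38, −2.37 (standard error 0.95, unadjusted p = 0.0539), and missed the threshold on p, with the pair of Mef2c-deficient arrays far apart. The size of these differences depended on which Mef2c-deficient array was kept. Without replicate 2 the log2 fold changes of Kif18b, Kif22 and Kif4 were −0.81, −0.27 and −1.004, and without Mef2c-deficient replicate 1 they were −3.93, −1.26 and −3.01, where each passed the call. Kif4 was lost on leaving out control replicate 1, 2 or 3, with log2 fold changes of −2.01, −2.11 and −1.90. It was also not called after quantile normalization, cyclic loess or housekeeping centring, at −1.12, −1.02 and −1.22.

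The depolymerases Kif2a and Kif2c were both called lower. Kif2a, which works at spindle poles and also prunes microtubules in cells that do not divide, had values of 4529, 4371 and 3903 in control and 2241 and 1269 in Mef2c-deficient cells, and Kif2c, which corrects faulty attachments at the centromere, had values of 314, 203 and 203 in control against 94.0 and 101. Neither gene overlapped between groups, and the log2 fold changes were −1.34 for Kif2a (standard error 0.33, adjusted p = 0.097) and −1.27 for Kif2c (standard error 0.31, adjusted p = 0.0958). In signal these folds were 1.90 and 1.84, below 2. Kif2a also fell short of the fold threshold without Mef2c-deficient replicate 2, at −0.93. The same held after quantile normalization, cyclic loess and housekeeping centring, at −0.48, −0.43 and −0.55. Kif2c was called on leaving out any 1 of the 5 arrays, and so was Kif18a.

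Motors of the midzone and of cytokinesis followed. Kif20a, which brings the Aurora B complex to the midzone, had values of 20413, 36975 and 21851 in control and 10237 and 7217 in Mef2c-deficient cells. Control replicate 2 was high and no Mef2c-deficient array reached a control one (log2 fold change −1.57, standard error 0.38, unadjusted p = 0.00914, adjusted p = 0.0958). Kif20b, needed for abscission, the final cut between daughter cells, had values of 8958, 7953 and 11395 in control against 6035 and 1736. Mef2c-deficient replicate 1 was just below the controls and replicate 2 far below them, so that the call rested on a wide error (log2 fold change −1.53, standard error 0.58, unadjusted p = 0.0474, adjusted p = 0.152). Without Mef2c-deficient replicate 2 neither gene was called, at −1.31 for Kif20a and −0.63 for Kif20b, and without Mef2c-deficient replicate 1 Kif20b stood at −2.43. Kif20b was also lost without control replicate 1, 2 or 3, at −1.56, −1.64 and −1.38. After quantile normalization, cyclic loess and housekeeping centring neither gene was called. Kif20a then stood at −0.66, −0.57 and −0.78 and Kif20b at −0.62, −0.52 and −0.74. Kif23, the motor of centralspindlin, which bundles microtubules of the midzone, had values of 19388, 18926 and 22648 in control against 15485 and 4585. Its groups did not overlap, but the fall was mostly in Mef2c-deficient replicate 2 and it was not called (log2 fold change −1.27, standard error 0.56, unadjusted p = 0.073). Kif14, which holds citron kinase at the midbody, read 778, 744 and 740.4 in control and 740.4 and 305 in Mef2c-deficient cells, and only Mef2c-deficient replicate 2 differed from the rest. Without Mef2c-deficient replicate 2 the log2 fold changes of Kif23 and Kif14 were −0.39 and −0.03, without Mef2c-deficient replicate 1 they were −2.14 and −1.31, past the call, and the sign of Kif14 turned with housekeeping centring, at 0.12.

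No motor of spindle assembly was called with all 5 arrays as deposited. Kif11, which slides antiparallel microtubules apart and is needed for a bipolar spindle, had values of 30845, 26499 and 33402 in control and 19925 and 20548 in Mef2c-deficient cells. Both Mef2c-deficient arrays were below all controls and close to each other, but the log2 fold change was −0.57 (standard error 0.25), smaller in size than the median of −0.91 for genes of that brightness, and its sign turned after quantile normalization, cyclic loess and housekeeping centring, at 0.26, 0.38 and 0.21. Kif15, which can stand in for Kif11, had values of 1072, 1497 and 1045 in control against 1072 and 1062, so that the groups overlapped and no difference was called (log2 fold change −0.15, standard error 0.28, negative as deposited and positive after quantile normalization, cyclic loess and housekeeping centring). Kifc1, a minus-end motor that gathers spindle poles, read 1067, 1015 and 1067 in control and 1634 and 1067 in Mef2c-deficient cells, higher on Mef2c-deficient replicate 1 alone (log2 fold change 0.33, standard error 0.29). Its near copy Kifc5b had values of 836, 867 and 512 in control against 554 and 124, low on Mef2c-deficient replicate 2 (log2 fold change −1.46, standard error 0.70). Kifc5b passed without Mef2c-deficient replicate 1, at −2.53, and with arrays centred on their medians, at −1.69, and was −0.38 without Mef2c-deficient replicate 2. Probes for such paralogs can bind both transcripts, so the split between them is uncertain.

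**Figure D3:**
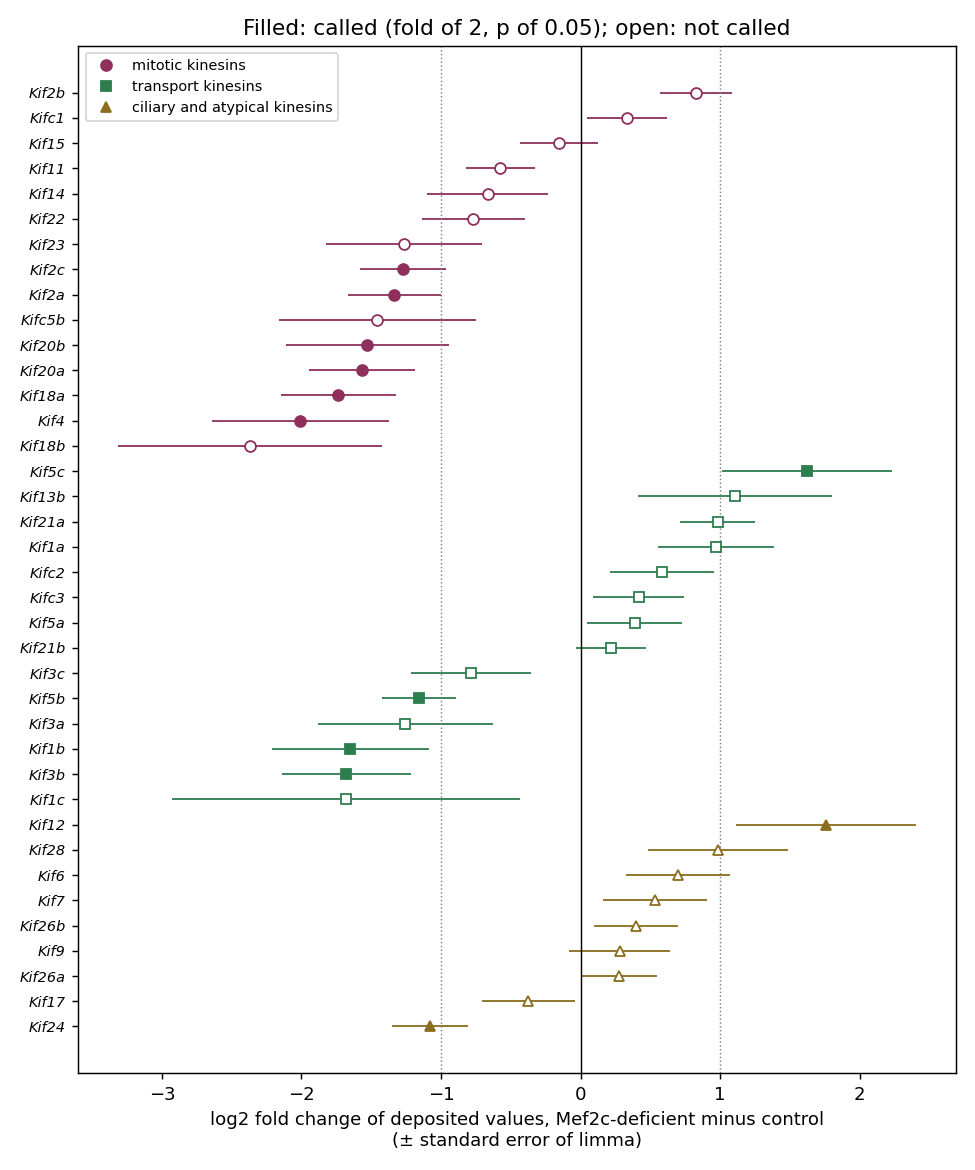
Log2 fold change of the deposited values for each of the 38 kinesins, Mef2c-deficient minus control, with limma's standard error as the bar. Circles are mitotic, squares transport, and triangles ciliary or atypical kinesins, filled where the gene was called at a fold of 2 and an unadjusted p of 0.05. Among mitotic kinesins 13 of 15 lie below 0 as deposited, while Kif11, Kif14, Kif15 and Kif22 turn sign under at least 1 of the scalings tried, and transport kinesins spread from −1.68 to 1.62.

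Of 13 measured genes that act with mitotic motors, 7 were called lower, where 16.7% of all genes and 29.8% of the brighter genes, to which all 13 belong, were, and 0 were called higher. All 13 had a negative log2 fold change as deposited. Their median was −1.19, which lay −0.23 from the medians of genes of like brightness and was −0.48, −0.27, −1.42 and −0.41 under the same 4 scalings. Tpx2, which activates Aurora A on spindle microtubules, had values of 40231, 39945 and 30309 in control and 15781 and 4018 in Mef2c-deficient cells (log2 fold change −2.20, standard error 0.63). Aurkb, the Aurora B kinase that Kif20a transports, had values of 7603, 6030 and 14023 against 2867 and 883.1 (log2 fold change −2.44, standard error 0.65). Like that of Kif22, the probe set of Aurkb carries the mark of possible cross-hybridisation. Cit, the citron kinase bound by Kif14, fell by 2.48 on the log2 scale. Incenp, Birc5, Cdca8 and Hmmr were also called lower. Cenpe, itself a kinesin that moves chromosomes but not named as one, had values of 6401, 5907 and 5424 against 4176 and 2787 and fell short of a fold of 2. Racgap1, which joins Kif23 in centralspindlin, and Prc1, the partner of Kif4, were not called, at log2 fold changes of −1.42 and −0.84. The number of partners called lower under the same 4 scalings was 2, 2, 11 and 1, beside 8.57%, 8.35%, 24.1% and 3.73% of all genes. It was 4 with folds taken in signal and 2 with the methods' t-test, beside 10.6% and 9.99%. Leaving out control replicate 1, 2 or 3 gave 4, 3 and 3, beside 11.2%, 12.5% and 11.6%. The median log2 fold change of the partners was −1.72 without Mef2c-deficient replicate 1 and −0.74 without Mef2c-deficient replicate 2.

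Other transcripts of G2 and mitosis gave 2 of 11 called lower, Bub1b and Cenpf, and 1 called higher, Top2a, with 10 of them negative and a median log2 fold change of −1.20 (−0.64, −0.45, −1.43 and −0.42 under the 4 scalings). The count called lower was near the 16.7% of all genes. It was below the 29.8% of the brighter genes, whose median was −0.86 and to which 10 of the 11 belong. Top2a, a topoisomerase that peaks with the mitotic motors, had values of 104, 180.5 and 115 in control and 547 and 312 in Mef2c-deficient cells, higher on both Mef2c-deficient arrays, on a dim probe set. Without Mef2c-deficient replicate 1, 8 of the 11 were called lower and 0 higher, and without Mef2c-deficient replicate 2 or control replicate 1 only 1 was called lower. The per-array medians show where the mitotic genes were low. Relative to the mean of the 5 arrays, the median log2 deviation of the 15 mitotic kinesins was 0.44, 0.40 and 0.38 on control replicates 1 to 3, −0.02 on Mef2c-deficient replicate 1 and −1.19 on Mef2c-deficient replicate 2. The G2 and mitosis transcripts followed the same arrays, at 0.39, 0.36 and 0.23 in control and 0.15 and −0.997 in Mef2c-deficient cells, and their summed value on Mef2c-deficient replicate 2 was 0.26 of the mean of the other 4 arrays. Mef2c-deficient replicate 2 was below replicate 1 for 12 of 15 mitotic kinesins, by a median of −0.99 on the log2 scale. Without that replicate 3 mitotic kinesins were called lower and their median log2 fold change was −0.60, and without Mef2c-deficient replicate 1 the count was 11 and the median −1.75, beside 14.2% and 18.7% of all genes called lower. Mef2c-deficient replicate 2 is also the array with the highest summed values of T and NK cell, plasmacytoid dendritic cell and erythroid markers, though not every marker of the T and NK cell and erythroid lists was high there. Of the 9 pro-B cell markers, 5 were lower there than on Mef2c-deficient replicate 1, among them Ebf1, at 3026 against 29295, and Blnk, at 2661 against 25010, while Dntt was higher, at 35539 against 3050. The part of other cells in the mitotic values was not tested.

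**Figure D4:**
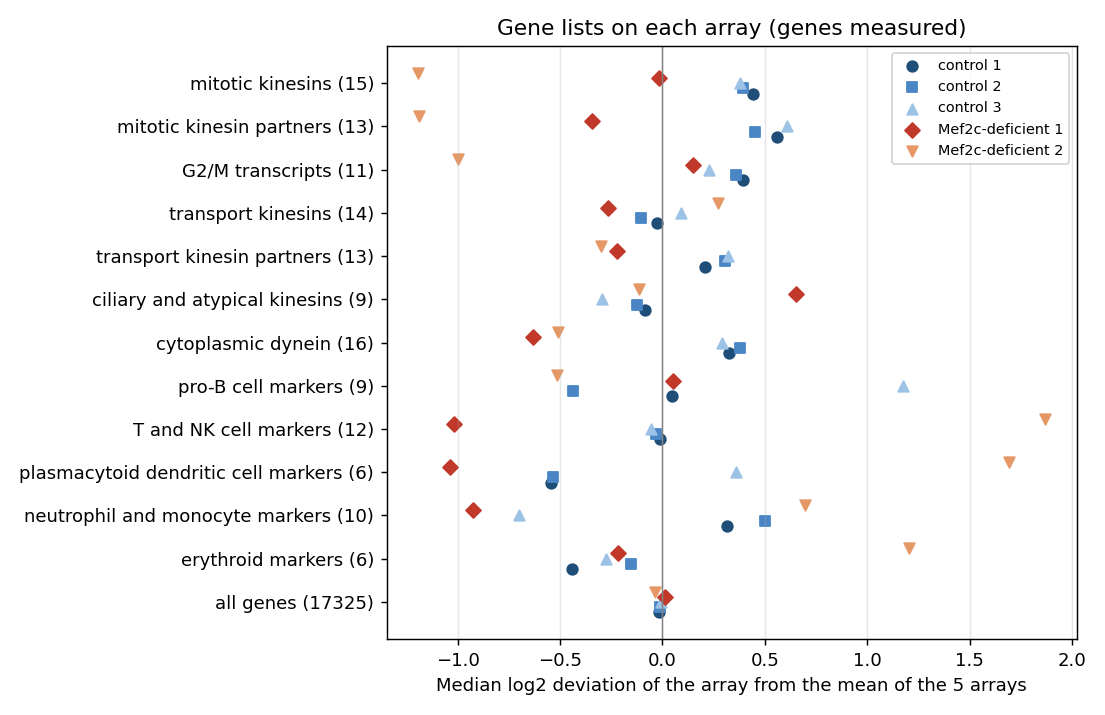
Median log2 deviation of each gene list on each of the 5 arrays from the mean of the arrays, with the number of genes measured in parentheses. On Mef2c-deficient replicate 2 (orange triangles) the mitotic kinesins, their partners and the G2/M transcripts lie near −1 while T and NK cell and plasmacytoid dendritic cell markers lie above 1.5. The transport kinesins lie between −0.26 and 0.27 on all 5 arrays.

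Of 14 transport kinesins, 3 were called lower and 1 higher, beside 16.7% and 9.65% of all genes, and 6 had a negative log2 fold change. Among the brighter genes 4 of 5 transport kinesins were negative, and among the dimmer genes 2 of 9. The medians of all brighter and all dimmer genes were −0.86 and 0.58. Their median log2 fold change was 0.30 as deposited and turned to −0.08 and −0.17 after quantile normalization and cyclic loess. Without Mef2c-deficient replicate 1, 1 transport kinesin was called lower. Kif5b, the ubiquitous heavy chain of conventional kinesin, had values of 3573, 3981 and 4906 in control and 1939 and 1753 in Mef2c-deficient cells. The groups did not overlap and the replicates of each lay close together, so that Kif5b had the smallest error of the called kinesins (log2 fold change −1.16, standard error 0.27, unadjusted p = 0.0072, adjusted p = 0.0938), and it was called on leaving out any 1 of the 5 arrays. Its log2 fold change was close to the median of genes of its brightness, −1.10, and it was no longer called after quantile normalization, cyclic loess or housekeeping centring, at −0.31, −0.25 and −0.37, with the replicate block, at −1.03, or with folds taken in signal, where it was 1.75. Its neuronal relative Kif5c had values of 24.8, 11.5 and 24.8 in control and 35.2 and 99.1 in Mef2c-deficient cells, at the dim end of the array, with Mef2c-deficient replicate 2 highest. Kif5c was called higher (log2 fold change 1.62, standard error 0.61, unadjusted p = 0.0445, adjusted p = 0.148) and was lost without control replicate 1, 2 or 3, at 1.81, 1.25 and 1.81, or without Mef2c-deficient replicate 2, at 0.88.

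Kif3b, which joins Kif3a in the motor that moves cargo in the cytoplasm and along cilia, was called lower. It had values of 244, 328 and 624 in control and 106 and 125 in Mef2c-deficient cells. The Mef2c-deficient pair lay close together below all controls (log2 fold change −1.68, standard error 0.46, unadjusted p = 0.0149, adjusted p = 0.106), and the call was lost without either Mef2c-deficient replicate, at −1.56 without replicate 1 and −1.79 without replicate 2. Kif3a had values of 557, 557 and 1549 in control against 223 and 483, high on control replicate 3. It was not called (log2 fold change −1.25, standard error 0.63), nor was Kif3c, an alternative partner of Kif3a, with values of 459, 413 and 826 in control against 247 and 396 (log2 fold change −0.78, standard error 0.43). For Kif3a, Kif3b and Kif3c alike the groups did not overlap.

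Of the Kif1 motors, which carry vesicles and mitochondria, Kif1b was called lower. It had values of 161, 530.1 and 326 in control, widely spread, and 115 and 81.3 in Mef2c-deficient cells, below each control (log2 fold change −1.65, standard error 0.56, unadjusted p = 0.0327, adjusted p = 0.131). The call was lost without control replicate 2 or 3, at −1.25 and −1.60, and without Mef2c-deficient replicate 1 or 2, at −1.90 and −1.40. Kif1c, a motor of Golgi and integrin traffic, had values of 2082, 2082 and 3568 in control and 184 and 3279 in Mef2c-deficient cells, so that the Mef2c-deficient arrays lay on both sides of the controls' lower values. Its log2 fold change of −1.68 had a standard error of 1.24, and was −3.76, past the call, without Mef2c-deficient replicate 2 and 0.40 without Mef2c-deficient replicate 1. Kif13b, which carries membrane cargo and binds phosphoinositides, had values of 57.4, 30.9 and 52.0 in control against 47.3 and 199.8, high on Mef2c-deficient replicate 2 alone, with a log2 fold change of 2.15 without Mef2c-deficient replicate 1, past the call, and 0.07 without replicate 2. Kif21a had values of 48.7, 51.0 and 36.8 in control against 91.8 and 86.5, higher on both Mef2c-deficient arrays but just short of a fold of 2 (log2 fold change 0.98, standard error 0.27), and it passed without control replicate 1 or 2 or Mef2c-deficient replicate 2, at 1.04, 1.07 and 1.03. Kif21b, a brake on microtubule growth that lymphocytes use at the immune synapse, had values of 3378, 3198 and 3378 in control against 3378 and 4396. It was level on 4 arrays and higher on Mef2c-deficient replicate 2, which went against the median of −1.10 for genes of its brightness (log2 fold change 0.22, standard error 0.25). Kif21b passed as higher after quantile normalization, cyclic loess and housekeeping centring, at 1.103, 1.16 and 1.0, and had a log2 fold change of −0.02 with arrays centred on their medians. The remaining transport genes, Kif1a, Kif5a, Kifc2 and Kifc3, had log2 fold changes from 0.39 to 0.97 on dim probe sets and none was called.

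Adaptors of the transport motors and the opposing motor were read from lists of known genes. Of 13 partners of transport kinesins, 5 were called lower and 1 higher, beside 16.7% and 9.65% of all genes, and 9 of the 13 belong to the brighter genes, of which 29.8% were called lower. The median log2 fold change of these partners was −0.96, and −0.40, −0.27, −1.19 and −0.18 under the same 4 scalings. Klc1, the light chain that joins cargo to Kif5b, had values of 1516, 1475 and 1601 in control and 593 and 929.7 in Mef2c-deficient cells (log2 fold change −1.04, standard error 0.30). Trak1 and Rhot1, which tie Kif5 motors to mitochondria, had log2 fold changes of −1.80 and −1.15, and Mapk8ip3 and Madd, a kinesin scaffold and the Kif1b adaptor, had −1.23 and −1.31. Mapk8ip2, a related scaffold, was the partner called higher, at 1.62. Without control replicate 1, 2 or 3 the number called lower was 1, 2 and 2, and without Mef2c-deficient replicate 1 it was 3. Of 16 genes of cytoplasmic dynein and dynactin, the motor that runs toward the minus end, 3 were called lower and 0 higher, namely Dynlt3, Dctn2 and Dctn4, with log2 fold changes of −1.45, −1.62 and −2.25. This count was near the 16.7% of all genes and below the 29.8% of the brighter genes, to which 15 of the 16 belong. The dynein median was −0.68 as deposited, −0.91 with arrays centred on their medians, and turned to 0.11, 0.21 and 0.10 under the other 3 scalings. Without Mef2c-deficient replicate 1, 7 genes of dynein and dynactin were called lower.

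Ciliary and atypical kinesins were mostly dim in pro-B cells, and 1 of 9 was called lower and 1 higher, beside 16.7% and 9.65% of all genes. Their median log2 fold change was 0.40 and turned to −0.11 after cyclic loess. Kif24, a depolymerase at the mother centriole that holds back the growth of cilia, had values of 1183, 1589 and 1149 in control and 608 and 616 in Mef2c-deficient cells. The Mef2c-deficient pair was almost equal and below all controls (log2 fold change −1.08, standard error 0.27, unadjusted p = 0.0103, adjusted p = 0.0973), and Kif24 fell short of the fold threshold without control replicate 2, at −0.93, or with folds taken in signal, where it was 1.68. Kif24 was also not called after quantile normalization, cyclic loess or housekeeping centring, at −0.68, −0.57 and −0.30. With array weights or the replicate block, Kif24 missed the threshold on p, at −1.075 and −1.16. Its promoter of 300 bases, part of which is shown above, held a CHR and 4 CCAAT boxes. Kif12, known from cystic kidney, had values of 42.0, 42.0 and 22.3 in control and 216 and 61.4 in Mef2c-deficient cells, highest on Mef2c-deficient replicate 1. It was called higher (log2 fold change 1.76, standard error 0.64, unadjusted p = 0.0413, adjusted p = 0.144) and lost without control replicate 1, 2 or 3, at 1.91, 1.91 and 1.45, or without Mef2c-deficient replicate 1, at 0.85, and stood at 2.66 without Mef2c-deficient replicate 2. Kif9, a motor of motile cilia, had values of 154, 166 and 172 in control against 279 and 142, with the Mef2c-deficient arrays on either side of the controls, and its log2 fold change of 0.28 (standard error 0.36) turned to −0.11 after cyclic loess and to −0.21 without Mef2c-deficient replicate 1. Kif7, a regulator of Hedgehog signalling at the tip of the cilium, was higher on Mef2c-deficient replicate 1 alone, at 587.0 where the other arrays were between 278.0 and 285.9. The other 5 genes, Kif6, Kif17, Kif26a, Kif26b and Kif28, had log2 fold changes from −0.38 to 0.99 and were not called.

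Mitotic and transport kinesins also differed in the brightness of their probe sets. Of the mitotic kinesins 12 of 15 lay in the brighter part of all genes, divided at their median, and of the transport kinesins 5 of 14 did. Among the brighter genes, 4 of 12 mitotic and 1 of 5 transport kinesins were called lower, with median log2 fold changes of −1.30 and −1.16, beside 29.8% of all brighter genes and a median of −0.86. Among the dimmer genes, where 3.68% of all genes were called lower and 16.2% higher and the median was 0.58, Kif18a and Kif2c of 3 mitotic genes and Kif1b and Kif3b of 9 transport genes were called lower, and the medians were −1.27 and 0.58. The same 4 genes were the kinesins still called lower after quantile normalization or cyclic loess. Set against genes of like brightness, in 10 groups of equal size by mean value, 9 of 15 mitotic kinesins were below the median of their group, by −0.36 in the median, and 8 of 14 transport kinesins, by −0.14. The difference between the mitotic and the transport set was not tested, because genes are not replicates of the condition. Equal values on different arrays, to 6 decimals of the log2 value, occurred in 16 of 38 kinesins, such as Kif15 and Kif21b, and in 40.01% of all genes.

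**Figure D5:**
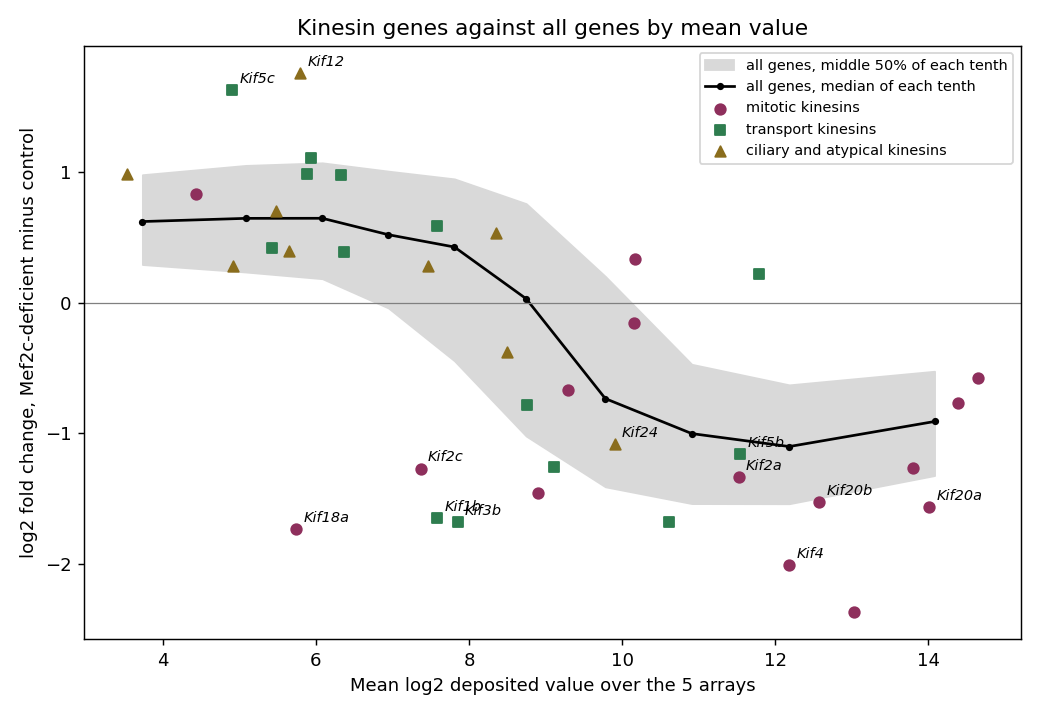
Log2 fold change against the mean log2 deposited value over the 5 arrays for the 38 kinesins, with the called ones named. The line joins the medians of all 17325 genes in 10 groups of equal size by mean value and the grey band holds the middle 50% of each group, whose median is 0.62 among the dimmest genes and −0.91 among the brightest. Kif18a, Kif2c, Kif1b and Kif3b lie below the band among dim genes, and Kif21b lies above it among bright ones.

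The CHR in the promoter is set beside the call gene by gene here, and a link between them was not tested. Of the 30 kinesins with a promoter among those searched, 14 held a CHR. Of the 8 kinesins called lower with a promoter among those searched, Kif20b, Kif2c, Kif4 and Kif24 held a CHR, and Kif18a, Kif2a, Kif1b and Kif3b did not. The promoters of Kif20a and Kif5b, also called lower, were not searched. Kif11, Kif15 and Kifc1 held a CHR within 30 bases of the start and were not called, with log2 fold changes of −0.57, −0.15 and 0.33. Kif14, Kif22, Kifc5b, Kif1a and Kif26b also held a CHR and were not called, at −0.67, −0.77, −1.46, 0.97 and 0.40. Kif18b and Kif23, with a CCAAT box and a CHR at the start, were not called either, and Mef2c-deficient replicate 2 was below replicate 1 by −3.12 and −1.76 on the log2 scale for these genes.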

How the data were processed

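RNA of sorted pro-B cells was hybridised to Affymetrix Mouse Genome 430 2.0 arrays, 3 control and 2 Mef2c-deficient. The authors' methods describe independent samples and do not say whether mice were pooled, so p-values measure only the spread between these arrays. The authors deposited RMA intensity values (background adjusted, quantile normalized and summarized per probe set) on a linear scale. RMA and limma are named in the submitters' processing notes, and detection calls were not used here. GEO's platform annotation gave 1 gene symbol to 17623 of 23835 probe sets, several to 516 and none here to 5696. Each gene was read from its probe set with the highest mean log2 value. Values were taken to log2 and fitted over 17325 genes with limma 3.58.1 in R 4.3.3 (lmFit, eBayes), with Benjamini-Hochberg adjustment over all genes. A gene was called at a fold of 2 and an unadjusted p of 0.05. The fit was tested on simulated data. The number of arrays limits the precision. Named genes were the better known kinesins of each role and any other kinesin that was called, and the remaining kinesins and a few partner genes and markers were named after their values were seen. The kinesins and all lists (roles, partners of mitotic and of transport motors, dynein, G2/M transcripts, markers of pro-B, T and NK, plasmacytoid dendritic, neutrophil and erythroid cells, housekeeping genes) were chosen with earlier results of these data known. Promoters came from RefSeq (GRCm38.p6), matched by symbol and searched in Python 3.11.15. Alternatives covered the fold scale, normalization, centring, a filter on dim genes, the probe set rule, array weights, the eBayes prior, the methods' t-test, a replicate block and leaving out each array.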

Additional observations from a re-analysis of the deposited data

How the results depend on the processing

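The count of kinesins called lower, 10 as reported, was 6 with folds of 2 taken in signal, 4 after another quantile normalization, 4 after cyclic loess, 0 with housekeeping centring, 14 with arrays centred on their medians, 6 with array weights and 6 with a replicate block, and ran from 6 to 13 on leaving out 1 array. The count called higher, 2 as reported, was 1 after quantile normalization, 1 after cyclic loess, 1 with arrays centred on their medians, 17 with housekeeping centring, and 0 with dim genes left out, with array weights, with the methods' t-test or with the replicate block, and ran from 0 to 4 on leaving out 1 array. Mitotic kinesins called lower, 6 as reported, were 2 after quantile normalization, 2 after cyclic loess, 10 with arrays centred on their medians and 0 with housekeeping centring, and ran from 3 to 11 on leaving out 1 array. Transport kinesins called lower, 3 as reported, were 0 with housekeeping centring and 1 with dim genes left out, with array weights or with the replicate block, and ran from 1 to 3 on leaving out 1 array.

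The median log2 fold change of mitotic kinesins, −1.27 as reported, was −0.48 after quantile normalization, −0.43 after cyclic loess and −0.49 with housekeeping centring, and ran from −1.75 to −0.60 on leaving out 1 array. That of transport kinesins, 0.30 as reported, was −0.081, −0.17 and 1.09 under these settings and −1.16 with dim genes left out, which keeps 5 of the 14 genes, and ran from 0.02 to 0.40 on leaving out 1 array. That of ciliary and atypical kinesins, 0.40 as reported, was 0.041, −0.11 and 1.18 under these settings and −0.38 with dim genes left out, which keeps 3 of the 9, and ran from 0.075 to 0.77 on leaving out 1 array. Among single genes the sign turned for Kif11 (0.26, 0.38 and 0.21 after quantile normalization, cyclic loess and housekeeping centring), Kif15 (0.42, 0.43 and 0.63 under the same settings, and from −0.25 to 0.012 on leaving out 1 array, the last without control replicate 2), Kif22 (0.084, 0.21 and 0.016 under the same settings), Kif14 (0.12 with housekeeping centring), Kif21b (−0.015 with arrays centred on their medians), Kif9 (−0.11 after cyclic loess and −0.21 without Mef2c-deficient replicate 1) and Kif1c (0.40 without Mef2c-deficient replicate 1 and −3.76 without replicate 2).

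Over all genes the calls lower and higher were 2897 and 1671 as reported, 1484 and 1374 after quantile normalization, 1447 and 1170 after cyclic loess, 4176 and 1067 with arrays centred on their medians, which moved the median of all genes from 0.04 to −0.19, and 647 and 7171 with housekeeping centring, which moved it to 0.83. Kinesins with an adjusted p under 0.05 numbered 15 with housekeeping centring, 8 without Mef2c-deficient replicate 1 and 2 without Mef2c-deficient replicate 2, beside 6600, 1680 and 1894 of all genes. With 1 Mef2c-deficient array left out, the spread comes from the controls alone and the lone array is assumed to vary like them. The causes of these changes were not tested. The titles share the numbers 1 and 2 between groups, but the methods describe independent samples, so the numbers were not taken as pairs. Deviations of same-numbered arrays correlated at 0.12 and −0.01 over genes. With 2 Mef2c-deficient arrays the deviations of replicate 1 mirror those of replicate 2, so these values cannot decide whether the arrays were paired. With the replicate block 1941 genes were called lower and 715 higher. Precision is limited by the 5 arrays and, for dim kinesins, by probe sets whose background was not assessed here.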
